A study of Mus musculus with 12 samples.

Results

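Kinesins are motor proteins that walk along microtubules, and the genes of the family were followed in mouse neocortex and in cultures of its cells. Genes were taken by symbol, as those named Kif, Kifc or Klc followed by a number, and had to be listed in both deposited tables of intron junctions. That gave 44 genes, of 18719 listed by the first table and 17776 listed by the second. All 44 passed the filter on low counts in the first table and 43 passed it in the second, where Kif12 did not. All samples came from wild-type NMRI mice, an outbred strain. Neocortex tissue was collected at postnatal day 49 (P49) and postnatal day 10 (P10). Neocortical cells dissociated from E16.5 embryos and kept for 14 days in culture received DRB for 2 hours at 50 uM, or were left as controls. In a second experiment, cultures received DRB for 2 hours at 50 uM with bicuculline for 1 hour at 20 uM, or the same DRB alone. DRB stops RNA polymerase II from elongating transcripts. Bicuculline is an antagonist of GABA-A receptors, so it raises network activity. Each of the 6 groups had 2 libraries.

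A kinesin of the transport type pairs motor heads, which hydrolyse ATP, with a tail that holds cargo, often through light chains or adaptors. In neurons such motors carry vesicles, mitochondria and RNA from the cell body into axons and dendrites, while dynein carries cargo the other way. Another branch of the family builds and moves the mitotic spindle in dividing cells, and a few members act in cilia or shorten microtubules.

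Levels rest on reads that cross an exon-exon junction, summed over the distinct junctions of each gene and given as CPM, a gene's share of its library's junction reads on the usual scale, with library sizes adjusted by TMM. The first table's libraries held 49987335 to 74647659 junction reads, and those of the second 62913370 to 70406878. Kinesin genes took 1.52% and 1.44% of those reads in P49 libraries, 1.06% and 1.09% in DRB cultures, 0.881% and 0.882% in control cultures, and 1.33% and 1.35% in P10 libraries. Markers of neurons were present throughout. The summed level of 6 of them was 5428 and 5362 CPM at P49, 3744 and 3606 CPM in DRB cultures, 1918 and 1971 CPM in control cultures, and 4249 and 4262 CPM at P10. CPM is a share of the library, so a change in the total RNA of a sample cannot be seen. The columns of both P10 libraries carry the same tissue code, so they may come from 1 animal. The labels do not say that the libraries within a group are separate animals or cultures, and p-values therefore measure the spread between these libraries, which may be technical.

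Transport kinesins, with the light chain Klc1 among them, were the most abundant members. To compare genes of different length, the median CPM over the introns of 1 coding transcript was taken for each gene (the per-intron level). At P49 the kinesin-1 heavy chain Kif5a led, with a per-intron level of 181 and 161 CPM in its 2 libraries. It was followed by the light chain Klc1 (103 and 102 CPM), by Kif1a (62.1 and 59.7 CPM) and by Kifc2 (62.0 and 58.5 CPM), and the libraries of the last pair overlapped. In DRB cultures the order was Klc1 (118 and 107 CPM per intron), Kif5a (59.1 and 60.6 CPM), Kif1a (55.5 and 57.0 CPM) and Kif5c (43.1 and 42.6 CPM), with no overlap between neighbours. In control cultures the order was Klc1 (56.6 and 59.9 CPM per intron), Kif1a (40.8 and 39.4 CPM), Kif5a (29.0 and 30.5 CPM) and Kif1b (26.3 and 25.5 CPM), also with no overlap. At P10 it was Klc1 (114 and 112 CPM per intron), Kif1a (72.7 and 76.7 CPM), Kif5a (68.0 CPM in both libraries) and Kifc2 (44.7 and 45.7 CPM). Kif5c came next, and its P10 libraries (44.9 and 44.7 CPM per intron) overlapped those of Kifc2. Kif12 was lowest of the 44 in these 4 groups, with a mean per-intron level of 0 CPM at P49, 0.00824 CPM in DRB cultures, 0.00927 CPM in control cultures and 0 CPM at P10.

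Adult and developing neocortex were compared to see how the family changes with age. At P49, 15 of the 44 genes rose and 26 fell against P10 (quasi-likelihood test of edgeR, adjusted by Benjamini-Hochberg over 15483 genes; adjusted p under 0.05). Over all genes tested, 57.1% were called, 28.2% higher and 28.9% lower. The median log2 change was -0.44 for the kinesins and -0.00085 for all genes. All 13 genes of the mitotic list fell, and the other 31 were divided, with 15 higher and 13 lower.

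The kinesin-1 motor, which moves many kinds of cargo along axons, changed in its heavy chains. Kif5a, the heavy chain found mainly in neurons, stood at 5068 and 4512 CPM in P49 libraries, against 1951 and 1936 CPM in P10 libraries. Both adult libraries lay far above both young ones, a log2 change of 1.30 ± 0.051 (SE; adjusted p = 4.8e-09). Kif5b, the heavy chain of most tissues, measured 367 and 346 CPM at P49 and 237 and 209 CPM at P10 (log2 change 0.68 ± 0.066, SE). Kif5c, the remaining neuronal heavy chain, overlapped between ages, at 1196 and 1130 CPM in P49 libraries and 1143 and 1150 CPM in P10 libraries. Its log2 change had a 95% interval of -0.068 to 0.11.

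The 4 light chains, which tie the heavy chains to cargo, moved unequally. Klc1, the most abundant, fell slightly, with 1381 and 1374 CPM at P49 against 1576 and 1582 CPM at P10 (log2 change -0.20 ± 0.048, SE; adjusted p = 0.0045). Klc2 rose, with 521 and 476 CPM in P49 libraries against 347 and 340 CPM in P10 libraries (log2 change 0.54 ± 0.053, SE). Klc3 and Klc4 rose too, by log2 changes of 1.11 ± 0.18 and 0.36 ± 0.057 (SE), but Klc3 was a minor chain at 5.89 and 4.78 CPM against 2.78 and 2.19 CPM. For each light chain, the P49 and P10 libraries did not overlap, and the share of all genes without overlap was not taken.

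Kinesin-2 motors carry cargo in cilia and dendrites. Kif3a, Kif3b and Kif3c all fell, by log2 changes of -0.31, -0.77 and -0.24. Kif3b had 36.3 and 34.6 CPM at P49 and 57.6 and 63.5 CPM at P10. Kif17, a dendritic motor known for carrying NMDA receptors, went the other way, with 33.2 and 32.6 CPM at P49 against 26.9 and 25.0 CPM at P10 (log2 change 0.34 ± 0.071, SE; adjusted p = 0.0017). The Kif17 values use annotated junctions, because the tables list the gene under a symbol merged with its neighbour Sh2d5.

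Kinesin-3 motors carry synaptic vesicle precursors and endosomes. Kif1a, which carries synaptic vesicle precursors, fell modestly, with 3027 and 2902 CPM in P49 libraries against 3576 and 3734 CPM in P10 libraries (log2 change -0.30 ± 0.040, SE; adjusted p = 6.0e-05). Its relatives rose, Kif1b by a log2 change of 0.19 ± 0.049 and Kif1c by 0.61 ± 0.062 (SE). Kif16b, a motor of early endosomes, measured 29.6 and 33.4 CPM at P49 and 13.4 and 13.9 CPM at P10 (log2 change 1.20 ± 0.084, SE; adjusted p = 3.3e-07). The paralogs Kif13a and Kif13b, both motors of endosomal vesicles, moved in opposite directions. Kif13b had 70.6 and 71.7 CPM at P49 against 32.9 and 34.2 CPM at P10, a rise of 1.08 ± 0.058 (SE) on the log2 scale. Kif13a had 50.4 and 45.5 CPM at P49 against 69.8 and 75.4 CPM at P10, and its log2 change was -0.60 ± 0.061 (SE).

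The kinesin-4 paralogs Kif21a and Kif21b, which both restrain the growth of microtubules, also parted. Kif21b fell to 156 and 159 CPM in P49 libraries, against 995 and 972 CPM in P10 libraries, a log2 change of -2.64 ± 0.042 (SE; adjusted p = 2.5e-11). Among members whose mean log2 CPM was 5 or more, no other log2 change between P49 and P10 was as large. Kif21a rose to 440 and 467 CPM at P49, against 247 and 237 CPM at P10 (log2 change 0.91 ± 0.046, SE; adjusted p = 3.3e-08). At P10 the Kif21b level per intron was 27.5 and 27.2 CPM and that of Kif21a 6.92 and 5.84 CPM. At P49 the order was turned, with 4.36 and 4.40 CPM per intron for Kif21b and 11.6 and 12.5 CPM for Kif21a. Kif7, which acts in Hedgehog signalling at the primary cilium, fell to 3.22 and 4.23 CPM at P49, against 7.88 and 7.60 CPM at P10. Its close relative Kif27 rose (log2 change 0.59 ± 0.13, SE).

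Other members had mixed changes. Kif2a, which shortens microtubules and is known for trimming axon branches, fell to 138 and 142 CPM at P49, against 206 and 213 CPM at P10. Kifc2, a neuronal member of the minus-end group, rose to 1128 and 1055 CPM at P49, against 822 and 837 CPM at P10. Kif19a, which controls the length of motile cilia, fell (log2 change -1.54 ± 0.11, SE). Kif6 and Kif9, known from motile cilia, rose by 0.79 ± 0.12 and 0.24 ± 0.086 (SE) on the log2 scale. Kif26a, a member without ATPase activity, and its paralog Kif26b fell by 1.13 and 0.99 on the log2 scale, and Kifc3, a minus-end motor, by 0.24. Kif12 and Kifc5b were not called, and Kifc5b shares near-identical sequence with the mitotic Kifc1, so the values of both are uncertain.

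**Figure D1:**
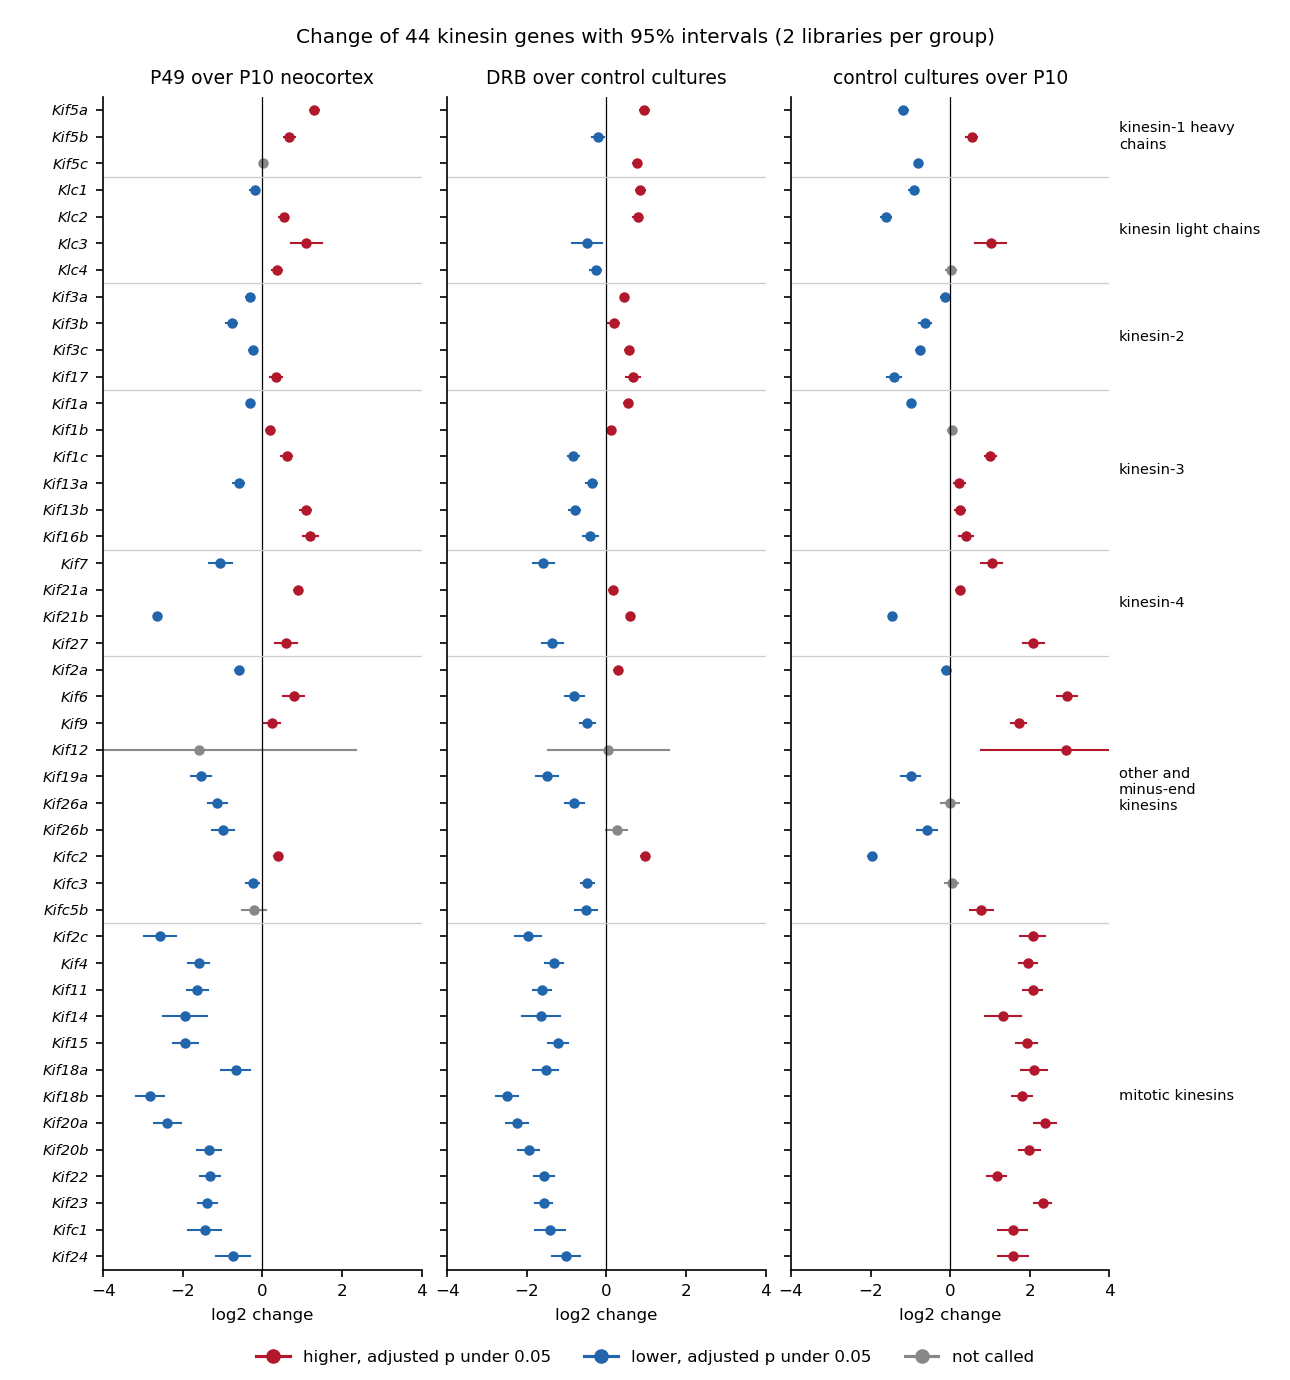
Log2 change of the 44 kinesin genes (points) with 95% intervals (bars) in 3 comparisons, 2 libraries per group, ordered by role; red and blue mark genes called at adjusted p under 0.05. The 13 mitotic kinesins lie left of 0 for P49 over P10 and for DRB over control, and right of 0 for control cultures over P10; the wide interval of Kif12 is drawn only as far as the axis.

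Mitotic kinesins formed a low but uniform block. Their summed level was 21.6 and 21.9 CPM in P49 libraries, against 67.7 and 67.2 CPM in P10 libraries, and the median log2 change of the 13 was -1.60. Kif18b, which acts at the plus ends of spindle microtubules, had 0.429 and 0.467 CPM at P49 against 3.10 and 3.27 CPM at P10 (log2 change -2.83 ± 0.16, SE). Kif2c, which depolymerises microtubules at centromeres, had 0.917 and 0.733 CPM at P49 and 4.73 and 5.09 CPM at P10 (log2 change -2.56 ± 0.18, SE). Kif11, which pushes spindle poles apart, had 2.29 and 2.65 CPM at P49 and 8.10 and 7.26 CPM at P10. For all 13 the P49 libraries lay below the P10 libraries, and the share of all genes that did so was not taken. The smallest changes were those of Kif18a, which aligns chromosomes (log2 change -0.67 ± 0.16, SE), and Kif24, which acts at centrioles (-0.75 ± 0.19, SE). Other markers of dividing cells moved with them: all 10 measured, among them Mki67 and Top2a, fell, with a summed level of 14.6 and 13.9 CPM at P49 against 83.0 and 84.6 CPM at P10. In whole tissue, fewer cells of a type and less RNA per cell cannot be told apart. The 6 oligodendrocyte markers rose with age, to a summed 2436 and 2496 CPM at P49 against 889 and 765 CPM at P10. The part of either marker list in the kinesin changes was not tested.

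The promoters of mitotic kinesins are shown because these genes moved together in all 3 comparisons of the first table. RefSeq promoters (GRCm38.p6, 250 bases before to 50 after the start) were found for 35 of the 44 genes, 12 of them mitotic. Each was searched on both strands for CCAAT and for TTTGAA or TTCGAA, the core of the cell cycle genes homology region (CHR), an element known from promoters of mitotic genes. A CHR core was found in 11 of 12 mitotic promoters (91.7%), in 4 of 27 promoters of the other members (14.8%) and in 19.2% of all 32851 promoters. CCAAT was found in 8 of the 12 (66.7%), in 10 of the 27 and in 37.4% of all. The 250 bases before the start follow for Kif18b, Kif2c and Kif14, 3 of the 4 mitotic genes with the largest falls at P49, with CCAAT and CHR matches on either strand in capitals.
Kif18b (chr11:102925125-102925374, minus strand): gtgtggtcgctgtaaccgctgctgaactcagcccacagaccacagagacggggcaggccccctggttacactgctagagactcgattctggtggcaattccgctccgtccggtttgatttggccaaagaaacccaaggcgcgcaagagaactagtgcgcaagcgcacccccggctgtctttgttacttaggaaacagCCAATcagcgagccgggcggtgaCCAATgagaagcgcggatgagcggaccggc
Kif2c (chr4:117178773-117179022, minus strand): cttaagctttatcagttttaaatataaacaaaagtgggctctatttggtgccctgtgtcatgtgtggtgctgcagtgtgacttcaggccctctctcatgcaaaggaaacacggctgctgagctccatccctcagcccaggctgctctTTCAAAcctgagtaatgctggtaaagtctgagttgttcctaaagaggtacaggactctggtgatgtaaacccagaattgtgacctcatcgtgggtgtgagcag
Kif14 (chr1:136467598-136467847, plus strand): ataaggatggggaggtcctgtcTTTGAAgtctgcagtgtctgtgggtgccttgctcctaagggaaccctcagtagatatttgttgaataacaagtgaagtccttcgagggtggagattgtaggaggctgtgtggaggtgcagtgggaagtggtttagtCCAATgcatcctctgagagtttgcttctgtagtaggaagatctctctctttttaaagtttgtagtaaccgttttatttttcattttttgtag
Kif18b has 2 CCAAT matches, which begin 53 and 30 bases before the start, and its CHR core begins at base 4 of the transcript, outside the stretch shown. Kif2c has a CHR core 103 bases before the start and no CCAAT, and Kif14 has a CHR core at 228 and a CCAAT at 92 bases before it. The starts are those listed by RefSeq and were not checked against the reads, so a listed start may lie inside a gene. A match describes the letters only and is no evidence of a site in use.

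**Figure D2:**
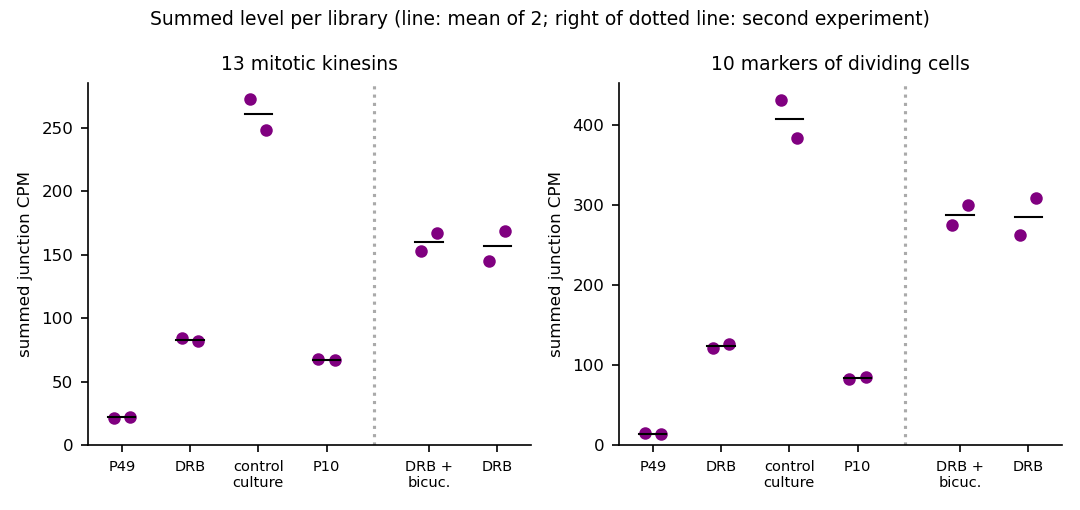
Summed junction CPM of the 13 mitotic kinesins (left) and of 10 markers of dividing cells (right) in each library (points) with the mean of each group (line). In the first experiment both sums are lowest at P49 and highest in control cultures (273 and 249 CPM for the kinesins); right of the dotted line stands the second experiment, which was normalised separately.

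Some of the smaller changes with age rested on 1 library. The call of Kif1b was lost without P49 library 2 (adjusted p = 0.051), that of Kif24 without P49 library 1 (adjusted p = 0.059), that of Kif9 without P49 library 1 or P10 library 2 (adjusted p = 0.18 and 0.23), and that of Kifc3 without P49 library 1 or P10 library 1 (adjusted p = 0.19 and 0.056). The calls of Kif9 and Kifc3 were also lost when only the P49 and P10 libraries were fitted (adjusted p = 0.105 and 0.062), and that of Kif9 with library totals in place of TMM (adjusted p = 0.079).

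Splice choice was compared where at least 2 listed junctions of a kinesin gene share a splice site, which held at 38 sites with 78 junctions in 24 of the genes. A junction that shares both its donor and its acceptor was counted at each, here and in all counts of junctions below. The share of each junction among the reads of its site was tested, and a change counted when it passed an adjusted p of 0.05 and moved by at least 10 percentage points. Between P49 and P10 this held for 5 junctions in 2 kinesin genes, Kif3a and Klc1, while 1.63% of all 26739 junctions were called. The 5 include a Kif3a junction counted at both its donor and its acceptor. The sequences at both places, and that of an exon of Kif13a that differed in cultures, are given from GENCODE release M21 transcripts (GRCm38), with 20 bases of the neighbouring exons in small letters and the variable bases in capitals. All bases shown are coding, and each variable stretch is a multiple of 3 bases long.
Kif3a, 9-base exon (chr11:53590717-53590725, plus strand): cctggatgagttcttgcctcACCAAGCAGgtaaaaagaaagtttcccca
Klc1, 27-base extension of an exon (chr12:111789460-111789486, plus strand): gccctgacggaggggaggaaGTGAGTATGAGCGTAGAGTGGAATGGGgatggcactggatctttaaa
Kif13a, 39-base exon (chr13:46780626-46780664, minus strand): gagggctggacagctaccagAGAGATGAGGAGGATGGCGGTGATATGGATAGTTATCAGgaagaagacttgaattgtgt

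In Kif3a, the junction that leaves out the 9-base exon, which GENCODE does not annotate, took 74.6% and 57.3% of the reads at its acceptor in P49 libraries, against 7.59% and 9.09% in P10 libraries (edgeR's diffSpliceDGE, adjusted p = 2.6e-04). These shares rest on 59 and 82 reads at P49 and 79 and 99 reads at P10. At its donor, the same junction took 72.1% and 70.2% of reads at P49 against 17.1% and 22.5% at P10 (adjusted p = 0.019). At the acceptor, cultures were near the young tissue, with 3.51% and 4.76% after DRB and 5.56% and 10.0% in controls, while at the donor they had 29 reads or fewer in each library. The preceding 72-base exon (chr11:53588689-53588760) was entered by 109 and 161 reads at P49 and by 317 and 273 reads at P10, with 127 and 126 reads after DRB and 54 and 61 in control cultures. The junction just before it had 930 and 884 reads at P49 and 1138 and 1363 reads at P10, a smaller difference between the ages than at the exon itself. At the next junction past the tested acceptor, 993 and 958 reads were counted at P49 and 1301 and 1424 at P10. The acceptor shares therefore describe a small part of the Kif3a reads. A junction that skips both exons is not among the junctions used here, so the share of all transcripts with the 9-base exon was not measured.

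In Klc1, whose exons near the 3' end are known to vary between isoforms of the light chain, the longer exon end took 36.1% and 38.5% of reads at its acceptor in P49 libraries, against 20.6% and 24.6% in P10 libraries (adjusted p = 0.0014). These shares rest on 1503 and 1350 reads at P49 and on 3643 and 4209 reads at P10. The longer end had 542 and 520 reads at P49 against 751 and 1037 at P10. The shorter end had 961 and 830 reads at P49 against 2892 and 3172 at P10. Both junctions thus had fewer reads at P49, and the higher share does not mean more of the longer form. DRB cultures had 18.8% and 18.4% and control cultures 19.5% and 21.01%, close to the P10 libraries. The junction of the shorter end, which GENCODE does not annotate, was not itself called (adjusted p = 0.33).

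**Figure D3:**
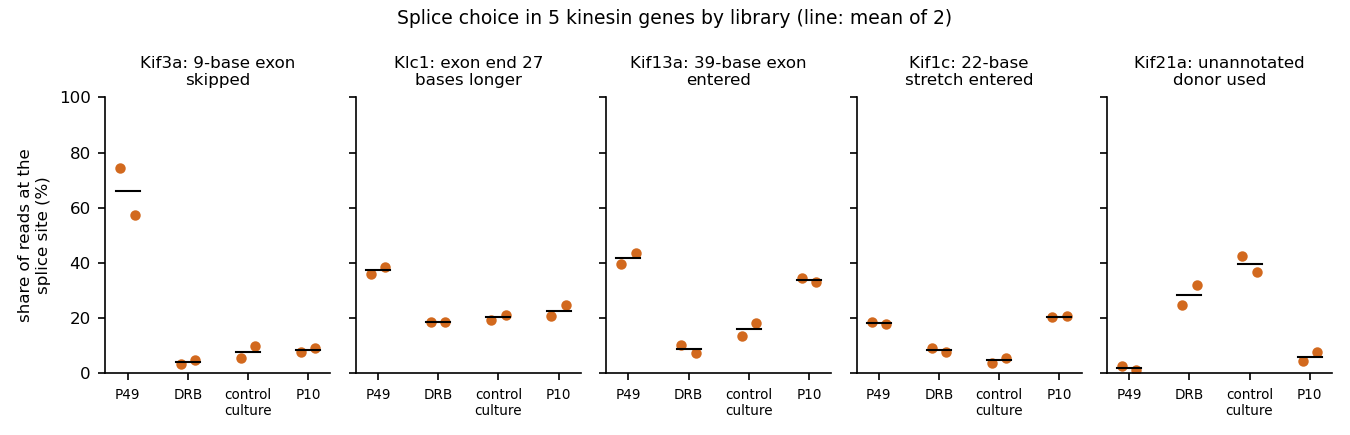
Share of reads (%) at a splice site taken by the named junction in each library (points) with the mean of each group (line), for 5 kinesin genes. P49 stands apart in Kif3a and Klc1, and control cultures lie below P10 in Kif13a and Kif1c and above it in Kif21a.

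DRB was given to ask what becomes of transcripts already made when new transcription is blocked. Against control cultures, 14 kinesin genes rose after DRB and 28 fell (edgeR, adjusted p under 0.05), where 62.6% of all genes were called, 29.7% higher and 33% lower. The median log2 change was -0.48 for the kinesins and -0.028 for all genes. With library totals in place of TMM, the median of all genes was -0.21, the kinesins had 10 higher and 28 lower, and all genes had 3009 higher and 6775 lower in place of 4596 and 5104. Changes here are therefore relative to other transcripts. In the first table, columns of other measures beside the DRB counts name TTX, while the columns of counts used name DRB without it; whether these cultures also received TTX is not said in the labels, so a part of TTX in the DRB differences cannot be told apart.

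Most of the abundant transport motors were among the genes that rose. Kif5a measured 1651 and 1666 CPM in DRB cultures, against 844 and 868 CPM in control cultures (log2 change 0.95 ± 0.051, SE; adjusted p = 6.8e-08). Kif5c measured 1115 and 1129 CPM after DRB and 665 and 651 CPM in controls (log2 change 0.77 ± 0.041, SE). Klc1 had 1553 and 1477 CPM after DRB against 798 and 876 CPM in controls, and Klc2 had 196 and 191 CPM against 108 and 116 CPM. Kifc2 had the largest rise of the family, to 412 and 423 CPM after DRB, against 208 and 215 CPM in controls (log2 change 0.98 ± 0.046, SE; adjusted p = 3.9e-08). Kif1a, Kif21b and all 4 kinesin-2 genes rose too, Kif1a to 2662 and 2760 CPM against 1859 and 1866 CPM and Kif21b to 540 and 547 CPM against 357 and 363 CPM. In each of these genes the DRB libraries lay above both control libraries, and the share of all genes that did so was not taken. Kif2a, Kif21a and Kif1b rose by smaller log2 changes of 0.29, 0.16 and 0.12. The 6 neuron markers rose as well, to a summed 3744 and 3606 CPM after DRB against 1918 and 1971 CPM, and their part in the kinesin changes was not tested. The kinesin rises rest on the first experiment, as the second had no untreated cultures. With DRB alone, the second, normalised separately, had 216 and 202 CPM for Kifc2, 124 and 121 for Klc2 and 346 and 331 for Kif21b. Those values were near the controls above. Kif5a (1606 and 1583 CPM) and Kif5c (1157 and 1109 CPM) were near the DRB cultures above. Klc1 (1294 and 1235 CPM) and Kif1a (2082 and 2011 CPM) lay between, and the experiments were not compared by test.

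The heavy chain Kif5b did not follow its paralogs. It had 279 and 280 CPM after DRB against 340 and 308 CPM in controls, a log2 change of -0.21 ± 0.065 (SE; adjusted p = 0.014). In the second experiment, normalised separately, cultures with DRB alone had 421 and 420 CPM of Kif5b. Kif1c, Kif13a, Kif13b and Kif16b of the kinesin-3 group fell, by log2 changes of -0.83, -0.37, -0.80 and -0.40. Kif13b had 22.2 and 23.3 CPM after DRB against 38.7 and 40.5 CPM in controls. Of the cilium-linked members, Kif7 had 5.32 and 5.33 CPM after DRB against 15.8 and 16.1 CPM in controls (log2 change -1.58 ± 0.12, SE). Kif27 and Kif19a fell by 1.36 and 1.49 on the log2 scale, and Kif6 and Kif9 by 0.80 and 0.47. Among the light chains, Klc3 and Klc4 fell by 0.49 and 0.27. Kifc3, Kifc5b and Kif26a fell by 0.48, 0.51 and 0.80, while Kif12 and Kif26b were not called.

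The mitotic list had all 13 members lower after DRB, with a summed level of 84.1 and 82.2 CPM against 273 and 249 CPM in control cultures and a median log2 change of -1.57. Kif18b had 1.94 and 2.01 CPM after DRB and 11.0 and 11.2 CPM in controls (log2 change -2.49 ± 0.13, SE). Kif20a, which acts in cytokinesis, had 7.89 and 8.33 CPM after DRB and 39.2 and 38.1 CPM in controls (log2 change -2.25 ± 0.12, SE). Kif24 changed least of the 13 (log2 change -1.01 ± 0.16, SE). The 10 dividing-cell markers also all fell, to a summed 122 and 126 CPM after DRB against 431 and 383 CPM. Of 4 endothelial and mural markers 3 fell and 1 rose, and their list summed to 168 and 170 CPM after DRB against 755 and 618 CPM in controls. All 3 markers of oligodendrocyte precursors fell, and of 5 astrocyte markers 3 fell and 1 rose. The part of these lists in the kinesin changes was not tested. No kinesin junction passed the rule on splice choice, with 5 of 78 at an unadjusted p under 0.05 and 2.28% of all 26659 junctions called. At sites with few reads a shift of 31.9 percentage points, in Kif21b, did not pass, so the count of 0 does not show that shares were equal.

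The smallest DRB changes were not stable. With library totals in place of TMM, Kif1b and Kif21a changed sign (log2 changes -0.059 and -0.020), and the calls of Kif2a and Kif3b were lost (adjusted p = 0.053 and 0.97). Kif1b was not called without DRB library 2, control library 1 or control library 2 (adjusted p = 0.35, 0.052 and 0.23), nor Kif21a without DRB library 2 (adjusted p = 0.067). Kif3b was not called without DRB library 1, DRB library 2 or control library 2 (adjusted p = 0.062, 0.13 and 0.18). Kif5b was not called without DRB library 1, DRB library 2 or control library 1 (adjusted p = 0.072, 0.059 and 0.14), nor Klc3 without DRB library 1 or control library 1 (adjusted p = 0.18 and 0.21) or with DESeq2 (adjusted p = 0.062).

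**Figure D4:**
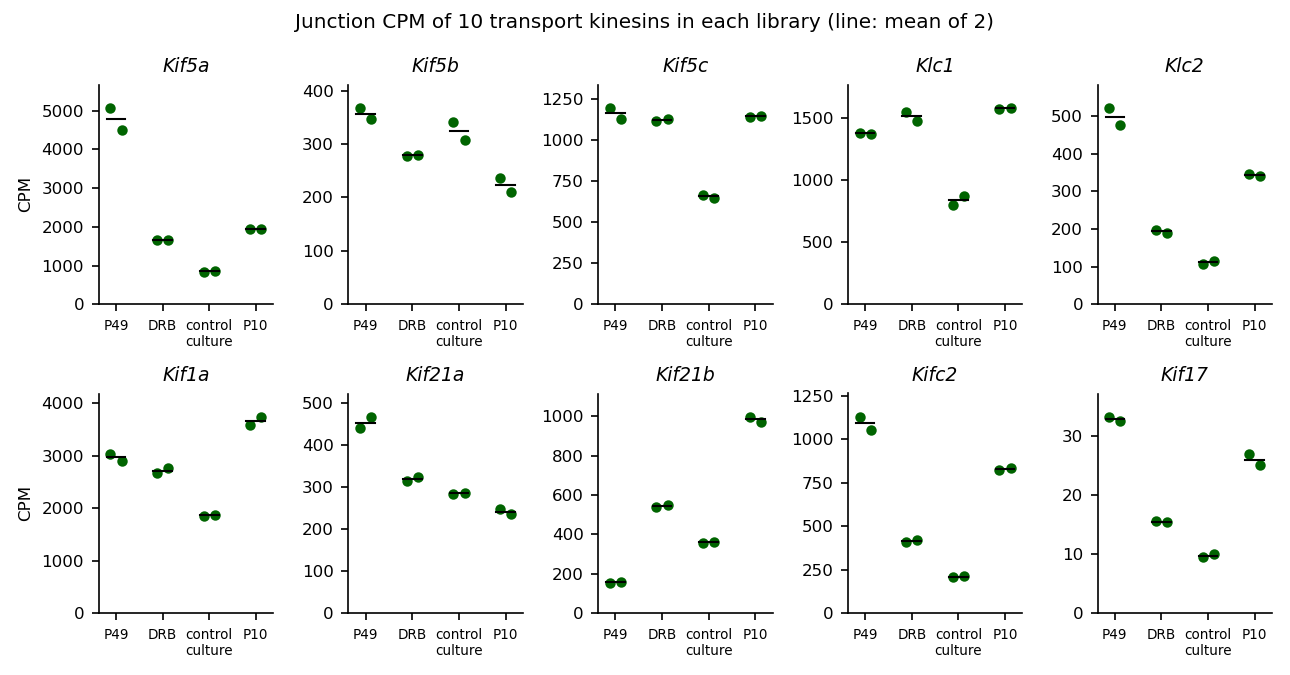
Junction CPM (vertical axes, linear, from 0) of 10 transport kinesins in the 8 libraries of the first table, points for libraries and a line for the mean of 2. Kif5a is highest at P49 (5068 and 4512 CPM), Kif21b at P10 (995 and 972 CPM), and Kif5c lies between 1115 and 1196 CPM in every group but control cultures (665 and 651 CPM).

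Control cultures were set against P10 neocortex to see how far the cultured cells carry the same motors; age at dissociation, culture and cell makeup cannot be told apart in it, and it shares its libraries with the comparisons above. Of the 44 kinesin genes, 26 rose in cultures and 14 fell (edgeR, adjusted p under 0.05), where 74% of all genes were called, 37% higher and 37.1% lower. With library totals in place of TMM, the median log2 change of all genes was 0.12 in place of 0.0063, and the kinesin counts were 27 and 12.

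Several transport kinesins were lower in cultures. Kifc2 fell to 208 and 215 CPM in control cultures, against 822 and 837 CPM at P10 (log2 change -1.97 ± 0.047, SE; adjusted p = 2.2e-11). Klc2 had 108 and 116 CPM in cultures against 347 and 340 CPM at P10 (log2 change -1.62 ± 0.055, SE). Kif21b, Kif17, Kif5a, Kif1a, Klc1 and Kif5c fell by 1.45, 1.41, 1.18, 0.97, 0.92 and 0.80 on the log2 scale. Kif3b and Kif3c fell by 0.63 and 0.76, and Kif19a and Kif26b by 0.99 and 0.58. For each of these genes the culture libraries lay below both P10 libraries, and the share of all genes that did so was not taken. The 6 neuron markers were lower in sum too, at 1918 and 1971 CPM in cultures against 4249 and 4262 CPM at P10, with 5 of them called lower and 1 higher. Other cell types moved too: all 6 oligodendrocyte markers and all 4 fibroblast markers were lower in cultures, with median log2 changes of -4.18 and -3.27. Of 4 microglia markers 3 were lower and 1 higher, and of 5 astrocyte markers 4 were higher and 1 lower. Of 4 endothelial and mural markers 2 were lower and 1 higher, and of 3 markers of oligodendrocyte precursors 2 were lower. The part of these marker lists in the kinesin changes was not tested.

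Genes that rose in cultures included Kif5b, with 340 and 308 CPM against 237 and 209 CPM at P10, and Kif1c, with 223 and 209 CPM against 112 and 104 CPM. Kif13a, Kif13b, Kif16b and Kif21a rose by 0.23, 0.24, 0.40 and 0.24 on the log2 scale. The cilium-linked Kif6 rose to 13.3 and 13.1 CPM in cultures against 1.76 and 1.68 CPM at P10 (log2 change 2.94 ± 0.12, SE; adjusted p = 8.5e-10). Kif27 rose to 18.7 and 16.6 CPM, against 3.75 and 4.53 CPM at P10, Kif9 to 42.7 and 40.2 CPM against 13.5 and 11.6 CPM, and Kif7 to 15.8 and 16.1 CPM against 7.88 and 7.60 CPM. Klc3 and Kifc5b rose by 1.01 and 0.78. The 13 mitotic genes all rose, to a summed 273 and 249 CPM against 67.7 and 67.2 CPM at P10, with a median log2 change of 1.95. All 10 markers of dividing cells rose beside them, to a summed 431 and 383 CPM against 83.0 and 84.6 CPM, and their part was not tested.

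Kif1b, Kif26a, Kifc3 and Klc4 were not called between cultures and P10; with library totals, Kif1b was called higher (adjusted p = 0.015). The calls of Kif2a and Kif3a (log2 changes -0.11 and -0.13) were lost with library totals (adjusted p = 0.91 and 0.65), without control library 2 (adjusted p = 0.16 and 0.087) and without P10 library 2 (adjusted p = 0.13 and 0.076), and that of Kif2a also when only the libraries of both groups were fitted (adjusted p = 0.051). Kif12, at 0.278 and 0.167 CPM in cultures against 0.0577 and 0 CPM at P10, was not called without control library 1 or P10 library 2 (adjusted p = 0.11 and 0.098).

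Splice choice differed between cultures and P10 at 5 of 78 junctions, counted in the same way, in 3 kinesin genes. Of all 26662 junctions, 3.91% were called. In Kif1c, 2 unannotated junctions border a 22-base stretch (chr11:70723904-70723925), and the junction into it took 3.90% and 5.43% of donor reads in control cultures against 20.4% and 20.6% at P10 (diffSpliceDGE, adjusted p = 6.3e-07). The P49 libraries, with 18.6% and 18.0%, were close to P10. In Kif21a, an unannotated junction whose intron ends at 90954323 on chromosome 15, on the donor side of a gene on the minus strand, took 42.4% and 36.8% of acceptor reads in control cultures against 4.55% and 7.56% at P10 (adjusted p = 5.1e-07). P49 libraries had 2.76% and 1.21% there, and DRB cultures 24.6% and 31.8%. In Kif13a, the junction into the 39-base exon shown above took 13.6% and 18.2% in control cultures against 34.5% and 33.0% at P10 (adjusted p = 0.037). The Kif13a call was lost when any 1 of the 4 libraries compared was left out, and without control library 1 Kif13b was called in its place.

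Bicuculline was added during the DRB block to ask whether network activity changes transcripts that already exist. No kinesin gene was called between DRB with bicuculline and DRB alone (edgeR, 43 genes tested, and the same count of 0 with DESeq2), where 0.201% of all 14397 genes were called, 0.181% higher and 0.0208% lower. Kif6 alone had an unadjusted p under 0.05, with 7.84 and 8.31 CPM with bicuculline against 7.08 and 6.82 CPM with DRB alone (log2 change 0.22, 95% interval 0.0092 to 0.42). Of all genes, 26 were called higher and 3 lower, or 23 and 0 with DESeq2.

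For abundant members the intervals were narrow. Over the 17 genes whose mean log2 CPM was 5 or more, they lay within -0.152 to 0.155 on the log2 scale. Kif5a had 1637 and 1508 CPM with bicuculline and 1606 and 1583 CPM with DRB alone, and its interval ran from -0.10 to 0.059. Kif1a had 2131 and 1962 CPM with bicuculline and 2082 and 2011 CPM with DRB alone. Klc1 had 1299 and 1207 CPM with bicuculline and 1294 and 1235 CPM with DRB alone. In all 3 genes the groups overlapped. Low members had wider intervals, reaching -0.63 and 0.51 over the 43 genes. The mitotic kinesins summed to 153 and 167 CPM with bicuculline and 145 and 169 CPM with DRB alone. No kinesin junction passed the rule on splice choice (0 of 53 junctions in 20 genes, 1 of 53 at an unadjusted p under 0.05, and 0.00945% of all junctions called). The largest shift of a kinesin junction, 30.8 percentage points, did not pass, so this count of 0 does not show that shares were equal.

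**Figure D5:**
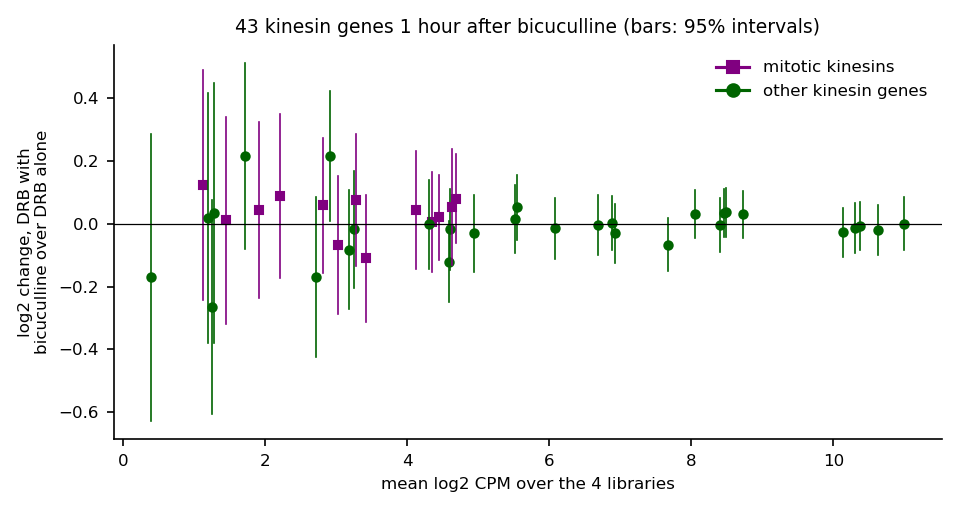
Log2 change with bicuculline over DRB alone (points) with 95% intervals (bars) against mean log2 CPM for the 43 kinesin genes tested; squares mark mitotic kinesins. Intervals narrow as the level rises and span 0 in all genes but Kif6.

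The partners of kinesins were followed with the same test, against the same shares of all genes called higher and lower: 28.2% and 28.9% at P49, 29.7% and 33% after DRB, and 37% and 37.1% in control cultures. Of 21 measured genes of dynein, the motor for the opposite direction, and its activator dynactin, 4 rose and 11 fell at P49 against P10, 18 rose and 1 fell after DRB, and 3 rose and 13 fell in control cultures against P10. The dynein gene that fell after DRB was Nde1, which acts in dividing progenitors as well as in transport, with 29.8 and 29.95 CPM after DRB against 60.1 and 59.4 CPM in controls (named after its values were seen). Of 26 measured genes that link kinesins to cargo, 10 rose and 9 fell at P49, 19 rose and 1 fell after DRB, and 3 rose and 18 fell in control cultures. The 10 and 9 adaptor genes called at P49 are 38.5% and 34.6% of the list, a little above the shares over all genes in both directions. Plekhm2, which ties kinesin-1 to lysosomes, had the largest rise with age among these, to 189 and 176 CPM at P49 against 93.2 and 87.0 CPM at P10. Sybu, an adaptor of kinesin-1 to syntaxin-bearing vesicles, had the largest fall, to 43.3 and 44.9 CPM at P49 against 85.4 and 90.8 CPM at P10. None of these partner genes was called with bicuculline (edgeR), and none had an unadjusted p under 0.05.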

How the data were processed

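PolyA RNA, extracted with Trizol, was sequenced from stranded libraries in 6 groups of 2. The tables deposited by the authors hold, for each intron and library, whole-number counts of reads across the spliced junction. The aligner STAR 2.4.0f1 and the mouse build mm10 (GRCm38) are named, per the submitters' processing notes. Columns were matched to groups by name, for control cultures, P49 and the second DRB group by elimination, so library 1 and library 2 only follow column order; in the first table, some unused columns beside the DRB counts name TTX, and 72 columns of other measures were not used. Table headers hold 3 more names than the lines have cells, so the names were read with an offset of 3.

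Junctions listed more than once under a symbol were counted once and summed per gene. Reads under the symbol NA (0.459% and 0.528% of the 2 tables) were left out. Kif17 is listed with Sh2d5 under 1 symbol, and was taken from its annotated introns in GENCODE release M21 (46.26% of those reads, with 48.92% in Sh2d5 and 4.819% unannotated). Kif16bos, an antisense gene listed in the first table only, was no member, and Kif2b, Kif25, Kif28, Dctn5, Rhot2 and Mapk8ip3 were not analysed here. Counts were tested with edgeR 4.0.16 (R 4.3.3; filterByExpr, TMM, quasi-likelihood test, Benjamini-Hochberg adjustment over all genes) in 1 fit per table, and splice choice with edgeR's diffSpliceDGE over junctions that share a donor or an acceptor, with at least 20 reads and a 5% share. The gene and splice tests were tested on simulated data. Alternatives used DESeq2 1.42.0, limma 3.58.1, library totals, other filters and single libraries left out.

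All members are accounted for; named in full are the members of each role list and up to 10 called genes or junctions per direction. The members, role lists and tests were chosen with earlier results of these data known. Role lists overlap in Kif4, Kif14 and Kif18b.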

Additional observations from a re-analysis of the deposited data

How the results depend on the processing

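Counts of kinesin genes called stayed within 1.5 times of those reported under every alternative run. Leaving out 1 library gave 14 to 15 higher and 24 to 26 lower at P49, 11 to 13 higher and 26 to 28 lower after DRB, 25 to 26 higher and 12 to 14 lower in control cultures, and 0 with bicuculline. Of the genes called, 37 of 41 at P49, 36 of 42 after DRB and 37 of 40 in control cultures were called under every alternative. For called genes, 1072 of 1107 values under an alternative kept direction and call, 33 lost the call and 2 changed sign, namely Kif1b (log2 change -0.059) and Kif21a (-0.020) after DRB with library totals in place of TMM. For genes not called, 66 of 467 values changed sign and 1 gained a call. With a minimum change of 20 percentage points, splice choice was left in 1 gene at P49 (Kif3a) and in 1 gene in control cultures (Kif21a), since fewer junctions can pass. Libraries with the same letter in the second table's columns had a correlation of deviations of 0.0765 across 14397 genes. A value over all genes cannot decide whether the letters pair the libraries. The fit with a replicate block on the letters called 0 kinesin genes higher and 0 lower. No paired analysis was possible in the first table because its columns carry no replicate number. With 2 libraries a group, members under about 1 CPM have wide intervals.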
